A study of Mus musculus with 10 samples.

Results

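The libraries described here were made from 50 nuclei each, cut out singly with a laser from sections of mouse brain (2 libraries) or mouse lung (3 libraries), 5 of the 10 libraries of the study. They were chosen by their labels alone, as those of individually captured nuclei. The other 5 libraries pooled 10 larger captured areas of about 20 nuclei, 200 nuclei per library, from the same tissues, 2 from brain and 3 from lung. All groups were wild-type C57BL/6J, a standard inbred strain, without treatment, and the sections were fresh frozen. Per the labels, sections were exposed to an in-house Tn5 transposase on the slide, nuclei were then captured at random by laser-capture microdissection (LCM), and libraries were at least technical duplicates. The labels used here name no brain region, age or sex and do not say how many animals were used, so the p-values below measure only the spread between libraries, which may be technical. The comparison addresses which stretches of open chromatin separated the tissues when the input was 50 nuclei.

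Tn5 inserts sequencing adapters preferentially where DNA is not wrapped in nucleosomes, so that read density in ATAC-seq reports chromatin accessibility. Accessible sites lie mainly at the starts of active genes and at enhancers, and those at enhancers differ most between cell types. Brain tissue holds neurons, astrocytes, oligodendrocytes and microglia, whereas lung is rich in capillary endothelium beside alveolar and airway epithelium, mesenchyme and immune cells. Mitochondrial DNA is not packed into nucleosomes, and Tn5 cuts it easily.

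The DNA below is the part of the RefSeq promoter window (GRCm38.p6, the release of mm10), up to the base before the gene's start, that lay under a called peak. It is shown for the promoters of lowest p among the peaks higher in brain (Clstn3, Pou3f3) and among those higher in lung (Ctla2b, Rras), with a neuronal gene (Syt1) and an endothelial gene (Klf2) from the gene lists. Sequences run 5′ to 3′ on the gene's strand, and capitals mark matches, on either strand, to any of 12 searched motifs. Clstn3 lies at chr6:124464785-124464981 (minus strand), Pou3f3 at chr1:42695626-42695767 (plus), Syt1 at chr10:109010976-109011154 (minus), Ctla2b at chr13:60897448-60897697 (minus), Rras at chr7:45017692-45017941 (plus) and Klf2 at chr8:72318812-72319061 (plus).
Clstn3: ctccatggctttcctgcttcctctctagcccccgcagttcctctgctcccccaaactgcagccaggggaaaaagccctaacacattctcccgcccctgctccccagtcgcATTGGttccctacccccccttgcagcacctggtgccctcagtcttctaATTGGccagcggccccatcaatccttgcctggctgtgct
Pou3f3: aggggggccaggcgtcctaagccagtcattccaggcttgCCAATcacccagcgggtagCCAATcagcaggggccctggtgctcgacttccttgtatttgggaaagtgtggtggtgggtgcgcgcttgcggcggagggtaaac
Syt1: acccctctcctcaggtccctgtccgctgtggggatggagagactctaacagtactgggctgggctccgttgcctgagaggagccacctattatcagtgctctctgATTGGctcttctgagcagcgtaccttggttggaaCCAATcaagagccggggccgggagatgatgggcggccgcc
Ctla2b: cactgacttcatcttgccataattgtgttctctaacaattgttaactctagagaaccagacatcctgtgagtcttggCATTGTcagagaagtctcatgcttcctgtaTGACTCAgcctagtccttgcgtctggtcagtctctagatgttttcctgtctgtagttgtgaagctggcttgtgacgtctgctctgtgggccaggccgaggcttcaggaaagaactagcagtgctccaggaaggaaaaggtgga
Rras: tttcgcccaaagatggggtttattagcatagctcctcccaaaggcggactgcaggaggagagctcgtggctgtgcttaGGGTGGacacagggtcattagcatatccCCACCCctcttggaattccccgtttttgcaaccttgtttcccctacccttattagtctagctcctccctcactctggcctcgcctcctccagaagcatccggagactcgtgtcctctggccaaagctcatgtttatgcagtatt
Klf2: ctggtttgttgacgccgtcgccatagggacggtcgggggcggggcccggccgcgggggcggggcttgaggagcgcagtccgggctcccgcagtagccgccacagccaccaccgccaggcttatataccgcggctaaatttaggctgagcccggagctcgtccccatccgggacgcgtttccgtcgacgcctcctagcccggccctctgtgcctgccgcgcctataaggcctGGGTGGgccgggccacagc
In Clstn3, Pou3f3 and Syt1 each run of capitals is a CCAAT box (CCAAT or ATTGG), with 2 matches per promoter. In Ctla2b the capitals are a SOX motif (ACAATG, here as CATTGT) and an AP-1 motif (TGANTCA). In Rras (2 matches) and Klf2 (1 match) they are the KLF motif (CCACCC or GGGTGG). The Klf2 stretch held 29 CpG dinucleotides at 71.2% G and C, against 3 CpG at 48.0% in Ctla2b.

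Over whole promoter windows of 300 bases, 97 lay under a peak called higher in brain, 16 under a peak called higher in lung, 8119 under any tested peak, and 32851 were listed in all. The CCAAT box was present in 51.5% of the windows of brain-higher peaks, 50.0% of those of lung-higher peaks, 40.0% of windows under a tested peak and 37.4% of all windows. The KLF motif was present in 45.4%, 56.3%, 36.7% and 31.5% of these sets. The cyclic AMP response element (CRE, TGACGTCA), which binds CREB factors, was found in 7 of the 97 brain-higher windows (7.22%) and in none of the 16 lung-higher ones, against 3.76% under tested peaks and 1.79% of all windows. AP-1 matches were in 3 of the 16 lung-higher windows (18.8%) and 5.15% of the brain-higher ones, against 4.20% under tested peaks. The ETS motif (CCGGAAG) was in 10.3% of the brain-higher and 6.25% of the lung-higher windows, against 20.0% under tested peaks. The SOX motif was in 10.3% of the brain-higher windows and in 3 of the 16 lung-higher ones (18.8%), against 6.43% under tested peaks and 12.6% of all windows. The other 6 motifs were the E-boxes CAGCTG and CAGATG, the NRF1 motif, the homeodomain core TAATTA, the TATA box TATAAA and the core of the REST site, which was in 12 of all windows and in no called one. Each motif was searched on both strands and counted separately, and matches of different motifs may overlap. These shares describe letters in a window, not bound sites. The median number of CpG per window was 19 for brain-higher peaks and 9 for lung-higher peaks, against 22 under tested peaks.

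The 5 libraries differed in depth and composition. Total reads in peaks ranged from 573596 to 6603983, but 93.4% and 95.2% of them lay in the 2 mitochondrial peaks in the brain libraries, against 58.0%, 40.6% and 49.4% in lung replicates 1 to 3. The mitochondrial share was 94.3% ± 1.26 (SD, n = 2) in brain and 49.3% ± 8.70 (SD, n = 3) in lung, without overlap. An exact permutation test (two-sided, 10 arrangements) gave p = 0.2, the smallest this design allows, and 0.4 after adjustment over 3 such tests. Nuclear reads numbered 365428 and 319307 in brain and 703353, 340697 and 547792 in lung, with overlapping groups (exact permutation p = 0.4). Levels below are therefore given as RPM, reads per 1000000 reads in nuclear peaks.

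The share of peaks reached by a read varied between lung libraries. At least 1 read fell in 94.3% and 90.1% of the 37511 nuclear peaks in brain, against 90.9%, 60.9% and 56.1% in lung, with overlapping groups (exact permutation p = 0.4, also 0.4 after adjustment). After each library was thinned to 319307 nuclear reads the values were 93.1% and 90.1% in brain and 85.2%, 60.7% and 54.6% in lung (exact permutation p = 0.2, the smallest possible). With at least 3 reads required, the groups overlapped, at 75.7% and 65.0% in brain and 81.4%, 53.3% and 51.7% in lung (exact permutation p = 0.6). Lung replicates 2 and 3 stood apart from the rest in the share of peaks reached. The median number of reads per reached peak was 11, 9 and 16 in lung replicates 1 to 3 and 6 and 5 in brain. Across peaks, log levels of the brain pair correlated at r = 0.687, the 3 lung pairs at 0.467 to 0.569 and the 6 brain-lung pairs at 0.413 to 0.497, as a description over peaks, which are not replicates.

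**Figure D1:**
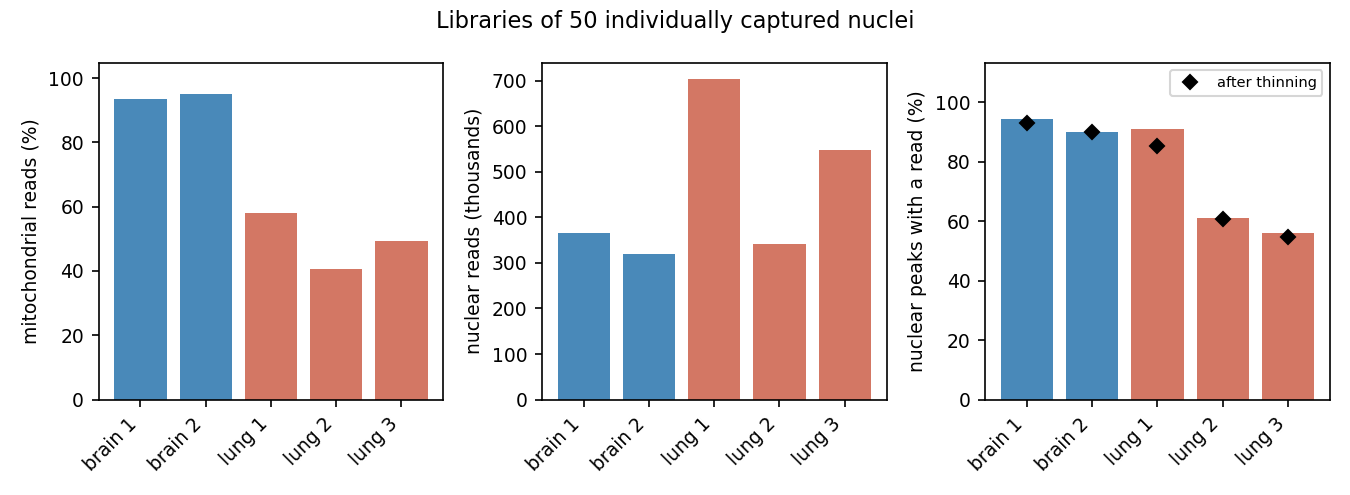
Mitochondrial share of reads (left, %), nuclear reads (middle, in units of 1000) and share of nuclear peaks with a read (right, %) in each library of 50 nuclei, brain in blue and lung in red. Bars are single libraries, and diamonds mark the share after thinning to 319307 nuclear reads. Lung replicates 2 and 3 reached 60.9% and 56.1% of peaks, the other libraries 90.1% or more.

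Tissue differences at 50 nuclei were called at 459 of 33251 tested peaks (1.38%; edgeR's quasi-likelihood test, Benjamini-Hochberg adjusted p under 0.05). Accessibility was higher in brain at 323 peaks (0.971%) and higher in lung at 136 (0.409%). Genes of the cell type lists held a small part of these calls. Among the 323 brain-higher peaks 6 lay at synapse genes, 5 at neural transcription factors, 4 at astrocyte genes and 3 at oligodendrocyte genes, and among the 136 lung-higher peaks 8 lay at endothelial genes. These calls rest on a spread estimated together with the libraries of 200 nuclei: a fit to the 5 libraries alone called 2 peaks, at Kcnj10 and Clstn3. The spread between libraries was wide, with a biological coefficient of variation of 0.587. Without brain replicate 1 the count was 12, and without brain replicate 2 it was 6. Leaving out lung replicate 1 raised it to 3060 and lung replicate 3 to 1100, and lung replicate 1 alone against brain gave 1559 (659 higher in brain and 900 higher in lung). DESeq2 called 1620, of which 453 were among the 459. The split moved with the scaling: nuclear totals without TMM factors gave 365 higher in brain and 282 higher in lung, 56.4% of calls in brain against 70.4%, and library sizes that include mitochondrial reads gave 69 and 19442. With those sizes the median log2 fold over all tested peaks moved from 0.19 to -3.05, so each direction below is relative to nuclear reads. At all 459 called peaks every library of the tissue with the higher level exceeded every library of the other, which also held for 10147 of the tested peaks (30.5%), 6484 in the brain direction (19.5%) and 3663 in the lung direction (11.0%).

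**Figure D2:**
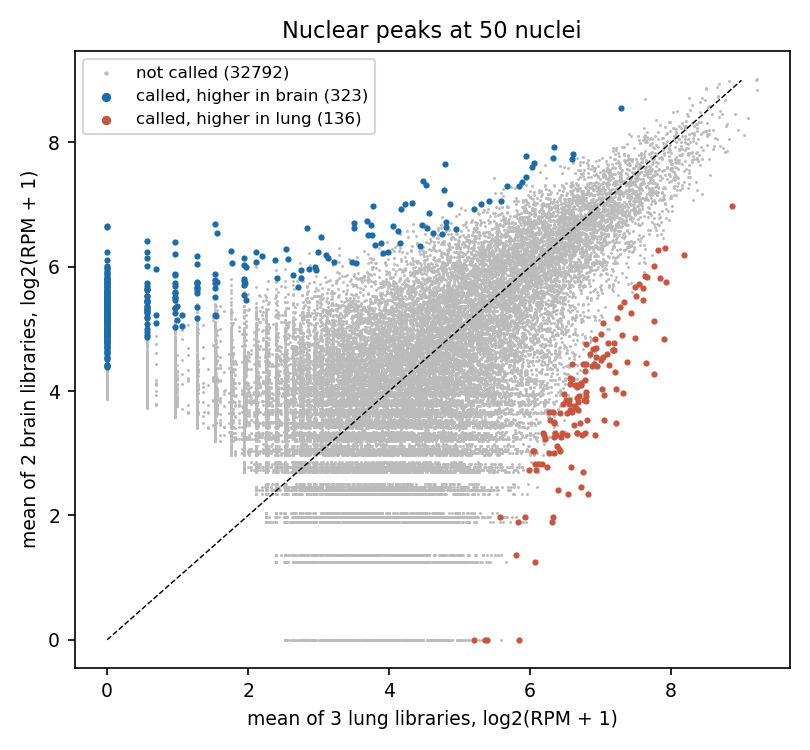
Mean level of each tested nuclear peak in the 3 lung libraries (x) and the 2 brain libraries (y) of 50 nuclei, as log2(RPM + 1), 1 point per peak. Blue points are the 323 peaks called higher in brain, many of them at 0 on the lung axis, red points the 136 called higher in lung, and the dashed line marks equal levels.

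The called sets differed in form. Peaks higher in brain were short, with a median width of 191 bp, and had a median of 31 reads over the 5 libraries. For lung-higher peaks the median was 401 bp and 169 reads. Over all tested peaks the medians were 180 bp and 36 reads. Brain-higher peaks lay within 1000 bp of a gene end in 153 cases (47.4%), inside a gene in 106 (32.8%) and more than 5000 bp from any gene in 52 (16.1%). For lung-higher peaks these numbers were 27 (19.9%), 44 (32.4%) and 54 (39.7%), against 43.6%, 29.5% and 22.0% of all tested peaks. Genes here are protein-coding genes and those of the gene lists, so a peak at another noncoding gene can count as far.

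No read was found in any lung library of 50 nuclei at 171 of the 323 brain-higher peaks (52.9%), against 768 of all tested peaks (2.31%). A count of 0 allows up to 1.88 RPM over the 3 lung libraries together (3 reads of 1591842, counting error only). Folds against these peaks are given as lower bounds on that count alone, between 10.8-fold and 52.7-fold. The words "at least" below have only this sense. The pooled brain level is taken as exact and the spread between libraries is left out, so folds in other libraries can be smaller. Of the 171, 161 had reads in lung at 200 nuclei, at a median of 2.05 RPM over the 171, against 35.8 RPM in brain at 50 nuclei and 30.3 RPM in brain at 200. In the single lung libraries the share of brain-higher peaks without a read was 56.0%, 79.3% and 83.3% for replicates 1 to 3, beside 5.67%, 33.0% and 37.5% of all tested peaks. The part of this lower reach in the calls was not tested beyond the fits without each library. Only 4 lung-higher peaks had no read in either brain library. The median log2 fold of the brain-higher peaks was 7.41 as fitted, where a peak without lung reads depends on edgeR's prior count, and 4.25 with such peaks at their bound. It was -2.74 for the lung-higher peaks and 0.19 for all tested peaks.

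The brain-higher peak of lowest p lay inside Kcnj10 (chr1:172349929-172350283), which encodes the Kir4.1 potassium channel of astrocytes and oligodendrocytes. It read 90.3 and 109.6 RPM in the brain libraries and 0 in each lung library, at least 52.7-fold higher (adjusted p = 0.000188). Clstn3 encodes a synaptic adhesion protein, calsyntenin-3, and its gene-end peak (chr6:124464666-124464981) read 112 and 84.6 RPM in brain and 0 in each lung library, at least 52.7-fold higher (adjusted p = 0.000763). Dctn1, a subunit of the dynactin complex of microtubule transport, had 76.6 and 72.0 RPM in brain and 0 in each lung library, at least 39.5-fold higher (adjusted p = 0.00109). Kcnj10, Clstn3 and Dctn1 stayed called without either brain library.

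Pou3f3 encodes a POU-domain transcription factor of the developing brain. The peak at its end (chr1:42695626-42695875) read 49.3 and 119 RPM in brain and 1.42, 0 and 0 RPM in lung, a log2 fold of 6.92 ± 1.06 (SE, adjusted p = 0.00127). Ndrg4, a gene of brain and heart, had 73.9 and 132 RPM in brain against 5.69, 0 and 0 in lung (log2 fold 5.46 ± 0.89, adjusted p = 0.00268). At Peg3, an imprinted gene expressed from the paternal copy, every library had a substantial level. Its peak (chr7:6728267-6729019) read 199.8 and 238 RPM in brain against 61.1, 64.6 and 56.6 in lung, a log2 fold of 2.02 ± 0.34 (adjusted p = 0.00268). Ttyh1 encodes a membrane protein of astrocytes and neural precursors and carried 2 called peaks, the stronger at 98.5 and 68.9 RPM in brain and 2.84, 0 and 0 in lung (log2 fold 6.06 ± 0.99, adjusted p = 0.00268). Of these 4 genes, Pou3f3, Ndrg4 and Peg3 stayed called without brain replicate 1 and Ttyh1 without brain replicate 2, and none without the other brain library.

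The synapse list held the most brain-higher calls, 6, followed by the lists of neurons in general and of neural transcription factors with 5 each. By share of tested peaks the order differed. Neurons in general led with 13.9%, followed by astrocyte and excitatory genes with 12.5% each and oligodendrocyte genes with 10.7%. Synapse genes had 10.5% and neural transcription factors 9.26%, against 0.971% of all tested peaks. The lists were chosen with earlier results of these data known, so these shares and those of the lists below are a description only. Of 30 genes of neurons in general, 22 had a tested peak. Of their 36 peaks, 5 were called higher in brain and none higher in lung, with a median log2 fold of 2.03 against 0.19 over all tested peaks. Without lung replicate 1 these medians were 4.07 and 0.46, and without lung replicates 2 and 3 together they were 1.55 and -0.05. The synapse list had 57 peaks at 33 of 45 genes, with 6 called higher in brain, none higher in lung and a median log2 fold of 1.69. In 34 of the 57 every brain library exceeded every lung library and in none the reverse, against 19.5% and 11.0% of all tested peaks. Summed over its peaks, the synapse list read 2184 and 2045 RPM in brain and 1136, 1057 and 681 RPM in lung, and the list of all neurons 969 and 896 against 395, 370 and 301. Lung libraries thus held reads at neuronal genes, at lower levels.

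Syt1 encodes synaptotagmin-1, the calcium sensor of neurotransmitter release, and its promoter peak (chr10:109010897-109011154) read 73.9 and 65.8 RPM in brain and 1.42, 0 and 0 in lung (log2 fold 6.65 ± 1.18, adjusted p = 0.0044). Uchl1, a neuronal ubiquitin hydrolase, had 41.0 and 68.9 RPM in brain and 0 in each lung library, at least 28.7-fold higher (adjusted p = 0.00506). At both genes the tissues did not overlap. Pclo, a scaffold of the presynaptic active zone, had 76.6 and 78.3 RPM in brain against 5.69, 8.81 and 0 in lung (log2 fold 4.20 ± 0.82, adjusted p = 0.00973). Grin1 encodes the obligatory subunit of NMDA receptors, with 41.0 and 28.2 RPM in brain and 0 in each lung library, at least 18.6-fold higher (adjusted p = 0.0285). Nrxn2 was the least stable of the called peaks named here. It read 131 and 128 RPM in brain and 48.3, 8.81 and 0 RPM in lung (log2 fold 2.70 ± 0.66, adjusted p = 0.0354) and lost its call in 8 of 16 alternative settings.

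A peak at Camk2a, the kinase subunit typical of excitatory neurons, had 57.5 and 78.3 RPM in brain and 0 in each lung library, at least 35.6-fold higher (adjusted p = 0.00843). It was the only called peak among 8 tested peaks of the excitatory list. The 3 peaks at Camk2a summed to 109 and 116 RPM in brain and 18.5, 11.7 and 40.2 RPM in lung. The median log2 fold of the excitatory list was 2.10. It lay between 1.96 (without lung replicate 2) and 4.50 (without lung replicate 1) with 1 library left out, and was 1.12 without lung replicates 2 and 3 together. The inhibitory list had 7 tested peaks, none called, with a median of 2.37, between 1.57 (without brain replicate 1) and 4.41 (without lung replicate 3). Gad1 and Gad2, the enzymes of GABA synthesis, had no peak in the table. Among neuronal ion channel genes 2 of 33 peaks were called, both higher in brain, with a list median of 0.44, between 0.29 (without lung replicate 2) and 2.99 (without lung replicate 1). A peak at Cacna1c, a calcium channel subunit, had 41.0 and 47.0 RPM in brain. One at Kcnq3, a subunit of the M-current channel, had 46.5 and 40.7 RPM. Both had 0 in each lung library and were at least 23.2-fold higher in brain (adjusted p = 0.0128 and 0.0235). Over all 16 peaks at Cacna1c the tissues overlapped, with 186 and 125 RPM in brain and 164, 44.0 and 256 RPM in lung. Of the calls named for neuronal genes in the lists of all neurons, synapse, excitatory neurons and ion channels, Clstn3 alone stayed without brain replicate 1 or 2.

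Glial genes were also called in the brain direction alone. Of 32 astrocyte peaks 4 were called higher in brain, of 28 oligodendrocyte peaks 3, and of 17 microglial peaks 1, against 0.971% of all tested peaks. None was called higher in lung, and the list medians were 1.53, 0.59 and 0.23. With 1 library left out these medians ran from 0.90 (without lung replicate 3) to 2.91 (without lung replicate 1) for astrocytes, from 0.37 (without brain replicate 1) to 1.30 (without lung replicate 1) for oligodendrocytes and from -0.11 (without brain replicate 2) to 0.46 (without brain replicate 1) for microglia. Sox8 encodes a transcription factor of oligodendrocytes, and its peak (chr17:25570657-25570940) read 93.0 and 119 RPM in brain against 5.69, 11.7 and 18.3 in lung (log2 fold 3.37 ± 0.60, adjusted p = 0.00441). Olig1, the oligodendrocyte lineage factor, had 30.1 and 62.6 RPM in brain and 0 in each lung library, at least 24-fold higher (adjusted p = 0.0127). Mag, a protein of the myelin sheath, had 38.3 and 28.2 RPM in brain and 0 in each lung library, at least 17.8-fold higher (adjusted p = 0.0371). The glial calls other than Kcnj10 and Ttyh1 were all lost when either brain library was left out. Slc38a3, a glutamine transporter of astrocytes, had 54.7 and 62.6 RPM in brain and 0 in each lung library, at least 31.0-fold higher (adjusted p = 0.00441). Sall1, a transcription factor that marks microglia among brain macrophages, had 35.6 and 53.2 RPM in brain and 0 in each lung library, at least 23.2-fold higher (adjusted p = 0.0135).

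Some defining glial genes showed no such separation. The 9 peaks at Mbp, the main myelin basic protein gene, summed to 186 and 238 RPM in brain and to 188, 129 and 223 RPM in lung. Gfap, the astrocyte intermediate filament gene, summed to 8.21 and 6.26 RPM in brain and 7.11, 0 and 31.0 RPM in lung. Sall1 was the only call of the microglial list. Of the 17 tested peaks of that list, 3 had every brain library above lung and 3 the reverse, against 19.5% and 11.0% of all tested peaks. Olfml3 read 0 and 3.13 RPM in brain and 11.4, 17.6 and 32.9 RPM in lung, and P2ry12, a purine receptor of microglia, 35.6 and 0 RPM in brain and 12.8, 23.5 and 43.8 RPM in lung. Spi1, the macrophage factor PU.1, overlapped, with 93.0 and 78.3 RPM in brain and 91.0, 67.5 and 94.9 RPM in lung. Olig2, Aqp4 and Cx3cr1 had no peak in the table. Neural transcription factors had 54 peaks, of which 5 were called, all higher in brain, with a median of 0.84, between 0.35 (without brain replicate 2) and 1.29 (without lung replicate 1). They were Pou3f1, Pou3f2, Pou3f3, Myt1l and Sox2. In 18 of the 54 every brain library exceeded every lung library and in 7 the reverse, against 19.5% and 11.0% of all tested peaks. By summed level 12 of 18 genes stood higher in every brain library and 2, Tcf4 and Zbtb18, in every lung library. These shares were 24.8% and 10.3% over all genes with a peak. At 200 nuclei the median of this list was -0.15. At Myt1l, a zinc-finger factor of neurons, 1 of 3 peaks was called. It had 57.5 and 62.6 RPM in brain and 0 in each lung library, at least 31.8-fold higher (adjusted p = 0.00571), and was lost without either brain library.

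The endothelial list, the largest with 142 tested peaks, had 8 called peaks, all higher in lung (5.63%, against 0.409% of all tested peaks), and a median log2 fold of -1.22. The share called in the lung direction was 6.67% for Hox genes, 3.33% for lung mesenchyme and 2.94% for immune genes, with 1 call each. In 46 of the 142 endothelial peaks every lung library exceeded every brain library and in 6 the reverse, against 11.0% and 19.5% of all tested peaks. Summed over the list, the levels were 4433, 4966 and 5345 RPM in lung and 1989 and 1635 RPM in brain. Gene by gene, the summed level was higher in every lung than in every brain library for 27 of the 41 endothelial genes with a peak and the reverse for 1, against 10.3% and 24.8% of all 12671 genes with a peak. In mini-bulks of mixed cells, fewer cells of a type and a lower signal per cell cannot be told apart. Brain has capillaries too, and Pecam1, an adhesion protein of endothelium, summed over 10 peaks to 112 and 50.1 RPM in brain and 318, 358 and 285 RPM in lung.

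Klf2, the flow-responsive endothelial factor whose promoter is printed above, had a peak (chr8:72318747-72319354) with 206, 323 and 341 RPM in lung and 68.4 and 75.2 RPM in brain (log2 fold -1.81 ± 0.33, adjusted p = 0.00484). Sema3g, a semaphorin of arterial endothelium, had 161, 147 and 139 RPM in lung and 10.9 and 9.40 RPM in brain (log2 fold -3.69 ± 0.53, adjusted p = 0.000763). Eng encodes endoglin, a co-receptor for TGF-beta ligands, and a peak inside it (chr2:32661489-32662138) had 132, 153 and 184 RPM in lung and 32.8 and 25.1 RPM in brain (log2 fold -2.24 ± 0.47, adjusted p = 0.0135). In all 3 every lung library lay above both brain libraries. Epas1, the hypoxia-inducible factor HIF-2 alpha, had 100.9, 96.9 and 159 RPM in lung and 19.2 and 21.9 RPM in brain (log2 fold -2.35 ± 0.55, adjusted p = 0.0286). Egfl7 carried 2 called peaks, and Pecam1 and Tal1 1 each. The named endothelial calls were all lost without brain replicate 1 and without brain replicate 2.

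Among genes outside the lists, Anks1 had the lowest p in the lung direction. The peak inside it (chr17:28015081-28015765) read 206, 249 and 257 RPM in lung and 30.1 and 25.1 RPM in brain (log2 fold -2.91 ± 0.41, adjusted p = 0.00074) and was called without brain replicate 1 but not without replicate 2. Rras encodes a small GTPase of endothelium and smooth muscle, and its promoter peak (chr7:45017242-45017996) was the highest of those named, at 419, 355 and 628 RPM in lung and 148 and 103 RPM in brain (log2 fold -1.72 ± 0.29, adjusted p = 0.00322). Ctla2b, a small protein related to cysteine protease propeptides, had 82.5, 141 and 91.3 RPM in lung and 2.74 and 6.26 RPM in brain (log2 fold -4.33 ± 0.72, adjusted p = 0.00268). A peak at its close paralog Ctla2a was called as well, and reads of near-identical copies may be split between them. Foxk1, Tmcc3, Map3k5, Map3k6 and Ak1 had log2 folds between -3.44 and -2.37. The calls at Rras, Ctla2b and these 5 genes were lost without either brain library.

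**Figure D3:**
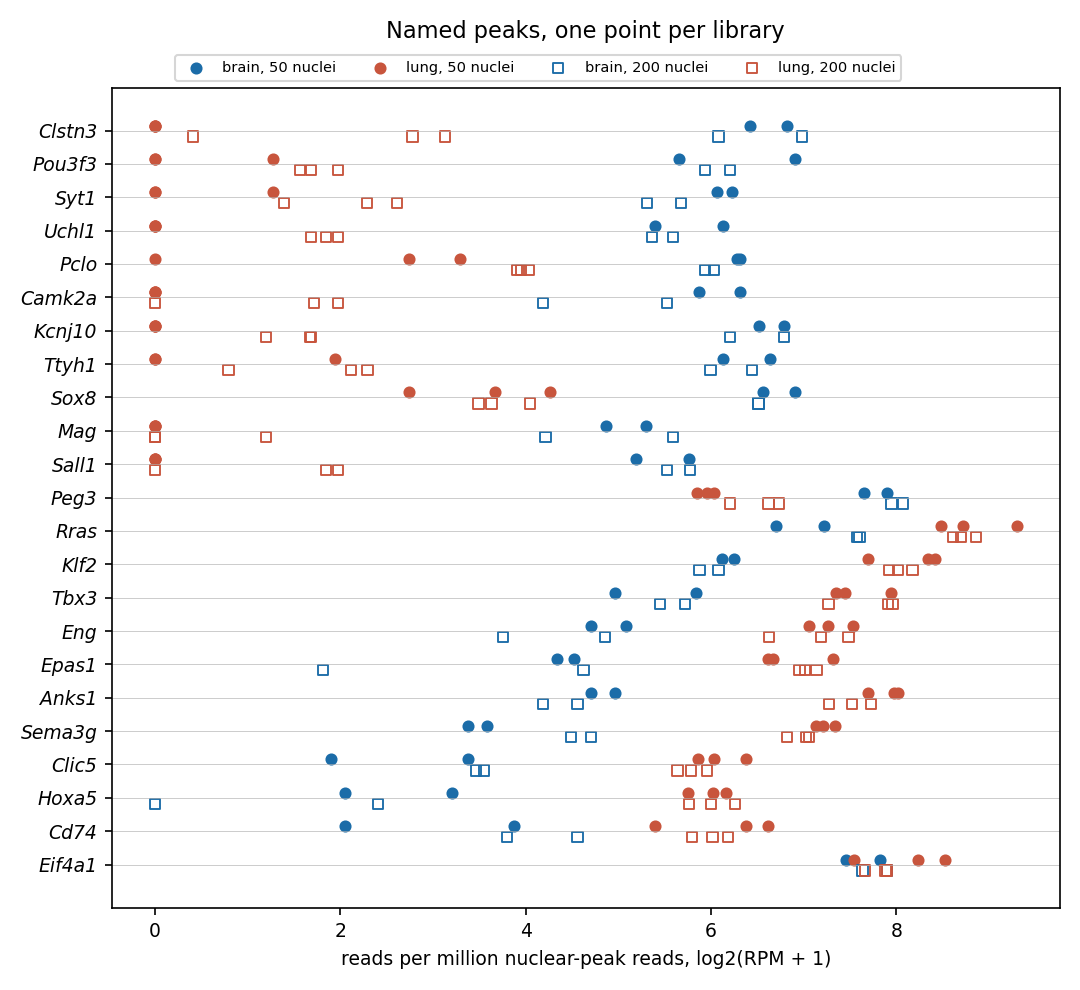
Level of 23 named peaks in every library as log2(RPM + 1), 1 point per library. Filled circles are libraries of 50 nuclei and open squares those of 200 nuclei, brain in blue and lung in red. Filled blue and red points do not overlap at any peak but Eif4a1, and Clstn3, Uchl1, Camk2a, Kcnj10, Mag and Sall1 sit at 0 in every lung library of 50 nuclei.

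Epithelial genes of lung held 1 called peak in all. Alveolar type 1 genes had 54 tested peaks with 1 called higher in lung (1.85%, against 0.409% of all tested peaks). Their median was -0.39 (-0.70 without brain replicate 2 and -0.15 without lung replicate 1). Every lung library was above brain at 13 of the 54, and the reverse held at 9, against 11.0% and 19.5% of all tested peaks. None of 29 type 2 peaks and none of 17 airway peaks was called, with medians of -0.02 and -0.18. With 1.38% of all tested peaks called in either direction, lists this short need not hold a call. The type 2 median lay between -0.38 (without brain replicate 1) and 0.47 (without lung replicate 1), and the airway median between -0.40 (without lung replicate 2) and -0.0047 (without brain replicate 2). Over genes, every lung library exceeded every brain library for 4 of 18 type 1 genes, 3 of 17 type 2 genes and 1 of 10 airway genes. The reverse held for 4, 3 and 1. Over all 12671 genes with a peak these shares were 10.3% in the lung direction and 24.8% in the brain direction. Among the genes in the lung direction, Hopx summed to 46.9, 91.0 and 54.8 RPM in lung and 32.8 and 15.7 RPM in brain. Gprc5a summed to 64.0, 44.0 and 115 RPM in lung and 32.8 and 15.7 RPM in brain. Sftpd, Napsa and Abca3 of the type 2 list also stood higher in every lung library, but on few reads or by small margins. Sftpd had 6, 4 and 6 reads in lung and 2 and 0 in brain. Napsa summed to 68.2, 44.0 and 52.9 RPM in lung and 43.8 and 6.26 RPM in brain. Abca3 summed to 165, 167 and 161 RPM in lung and 156 and 116 RPM in brain. Other defining markers were low or overlapping. Ager, the marker of type 1 cells, summed to 19.9, 0 and 3.65 RPM in lung and 19.2 and 25.1 RPM in brain. Sftpb, a surfactant gene of type 2 cells, had 35.5, 8.81 and 0 RPM in lung and 16.4 and 9.40 RPM in brain, and Sftpc had no peak in the table. Scgb1a1, the secretoglobin of club cells, had 32.7, 8.81 and 0 RPM in lung and 27.4 and 25.1 RPM in brain. The called type 1 peak lay inside Clic5, a chloride channel family member, with 56.9, 64.6 and 82.1 RPM in lung and 2.74 and 9.40 RPM in brain (log2 fold -3.30 ± 0.80, adjusted p = 0.0339). That call was lost with the replicate number as a block and without either brain library.

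Mesenchymal, immune and positional genes each had 1 call, all higher in lung. Tbx3, a T-box factor of lung mesenchyme, had a peak (chr5:119670363-119671082) with 162, 173 and 245 RPM in lung and 30.1 and 56.4 RPM in brain (log2 fold -1.98 ± 0.41, adjusted p = 0.0127). The median over the 30 peaks of that list was 0.44, between -0.51 (without brain replicate 1) and 1.12 (without lung replicate 1). Cd74, the invariant chain of MHC class II, had 96.7, 41.1 and 82.1 RPM in lung and 13.7 and 3.13 RPM in brain (log2 fold -2.95 ± 0.75, adjusted p = 0.0383). The immune list had 34 tested peaks and a median of -0.92. Hoxa5, a homeobox gene needed for lung development and silent in the forebrain, had 64.0, 70.4 and 52.9 RPM in lung and 8.21 and 3.13 RPM in brain (log2 fold -3.24 ± 0.83, adjusted p = 0.0413). The 15 Hox peaks had a median of -1.42. In 7 of them every lung library was above brain and in none the reverse, against 11.0% and 19.5% of all tested peaks. Their sum was 284, 364 and 310 RPM in lung and 104 and 93.9 RPM in brain. The calls at Tbx3, Cd74 and Hoxa5 were lost without either brain library.

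Lists without a call included fibroblast and matrix genes (67 peaks, median -0.35, and 0.02 without lung replicate 1), smooth muscle and pericyte genes (13 peaks, 0.78), choroid plexus and ependyma (6 peaks, 0.28) and erythroid genes (3 peaks, -0.85). Only 1.38% of all tested peaks were called, so the lack of a call says little about such a list. The choroid plexus median lay between -0.02 (without lung replicate 2) and 0.76 (without lung replicate 1), and the erythroid one between -1.35 (without brain replicate 1) and -0.33 (without lung replicate 3). Housekeeping genes had 71 peaks, none called, with a median of 0.09, between -0.035 (without brain replicate 2) and 0.31 (without lung replicate 1). Their summed level was 3470 and 3777 RPM in brain and 3954, 4089 and 4414 RPM in lung. Eif4a1, a translation initiation factor and the highest of them, had 175 and 225 RPM in brain and 185, 299 and 367 RPM in lung (log2 fold -0.29 ± 0.29, adjusted p = 0.701).

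**Figure D4:**
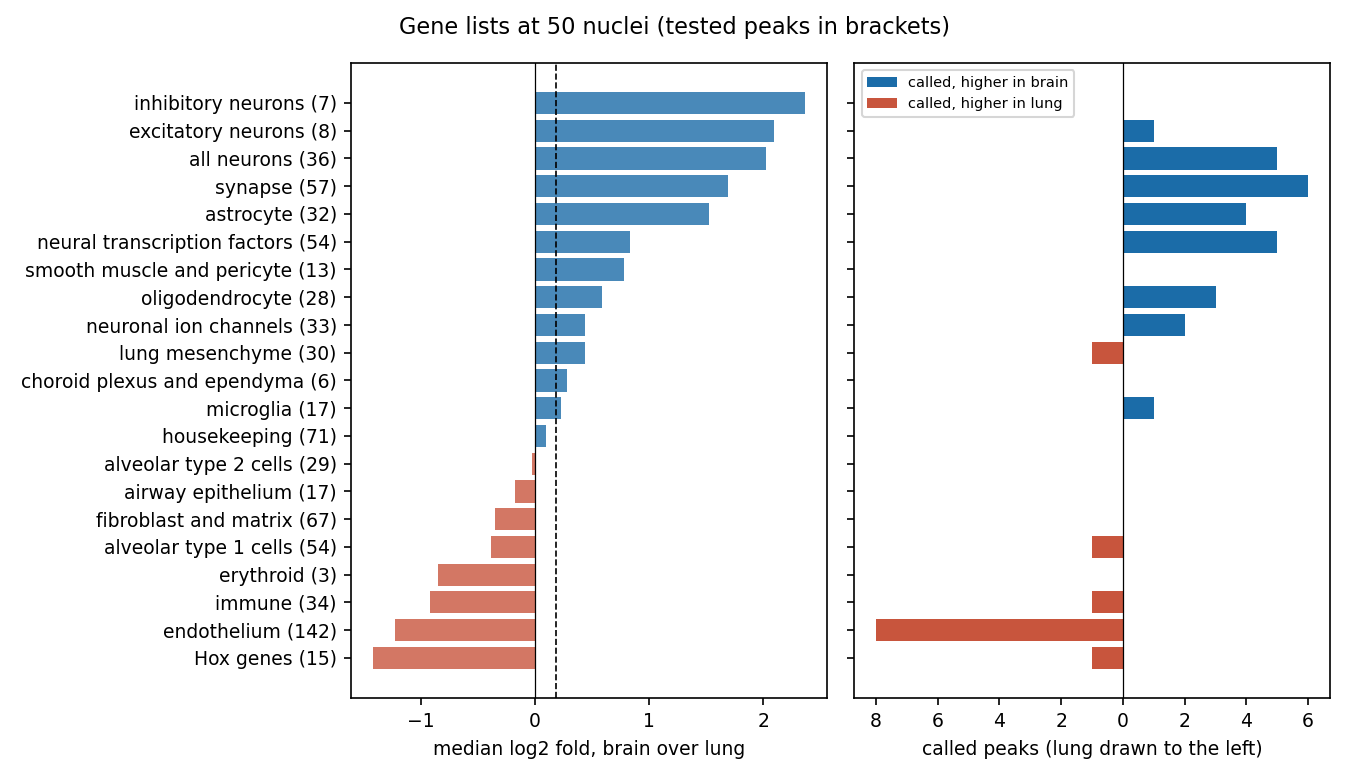
Median log2 fold of brain over lung (left) and number of called peaks (right) for each gene list at 50 nuclei, with the number of tested peaks in brackets. The dashed line is the median of all tested peaks, 0.19. Synapse genes have 6 brain-higher calls and endothelial genes 8 lung-higher calls.

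Far from genes, lung-higher peaks of large size stood near Irf8, which encodes a transcription factor of macrophages and dendritic cells. The peak at chr8:120876053-120876872, 119768 bp from the gene, read 273, 144 and 228 RPM in lung and 27.4 and 9.40 RPM in brain (log2 fold -3.38 ± 0.53, adjusted p = 0.00151). Another at chr8:120830632-120831200, 74222 bp away, read 142, 149.7 and 203 RPM in lung and 32.8 and 9.40 RPM in brain (log2 fold -2.75 ± 0.49, adjusted p = 0.0044). Both stayed called without brain replicate 1 and were lost without brain replicate 2. A peak 118920 bp from Klf4, an endothelial and epithelial factor, at chr4:55651049-55651741, had 195, 208 and 323 RPM in lung and 46.5 and 59.5 RPM in brain (log2 fold -2.0 ± 0.37, adjusted p = 0.00571). In the brain direction a peak at chr13:83744920-83745286, 78024 bp from Mef2c, a transcription factor of neurons and muscle, had 52.0 and 62.6 RPM in brain and 2.84, 0 and 0 RPM in lung (log2 fold 5.53 ± 1.05, adjusted p = 0.00758). The calls near Klf4 and Mef2c were lost without either brain library. A nearest gene is a position only and need not be the gene that such a site regulates.

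Several called peaks at 1 gene were uncommon. Of 261 genes with a brain-higher peak, 10 had 2 such peaks (Josd2, Peg3, Phactr3, Pick1, Pxylp1, Slc8a2, Tafa5, Tppp, Tsc22d4 and Ttyh1), and of 78 genes with a lung-higher peak 4 did (Egfl7, Ehd1, Lrmda and Pakap). Pick1 encodes a scaffold that binds AMPA receptors, Slc8a2 a sodium-calcium exchanger of brain, and Tppp a tubulin polymerisation protein of oligodendrocytes. No gene had called peaks in both directions.

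The libraries of 200 nuclei, none of which entered the group means above, gave a second reading of the called peaks, although the labels do not say whether they came from other animals. These libraries did enter the spread by which peaks were called, which favours peaks with close values within each group of 200 nuclei. The counts below are therefore not independent of the calls. Of the 323 brain-higher peaks 320 had a log2 fold above 0 at 200 nuclei, against 45.7% of all tested peaks, and all 136 lung-higher peaks had one below 0. The exceptions were Prkar1b (-0.82), Cnr1 (-0.51) and Donson (-0.16). At 302 of the 323 every brain library of 200 nuclei exceeded every lung library, against 23.9% of tested peaks, and at all 136 lung-higher peaks the reverse held, against 26.9%. The median log2 fold at 200 nuclei was 2.93 for the brain-higher peaks and -2.41 for the lung-higher peaks. The medians of 4.25 (with peaks at their bound) and -2.74 at 50 nuclei come from the values by which the peaks were called and are not set against these as a test.

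At 200 nuclei 669 peaks were called (2.01%), 257 higher in brain (0.773%) and 412 higher in lung (1.24%). The calls shared between sizes numbered 107 in the brain direction, 33.1% of those at 50 nuclei and 41.6% of those at 200. In the lung direction 91 were shared, 66.9% and 22.1% of the respective sets. No peak was called in opposite directions. For Kcnj10 the log2 fold at 200 nuclei was 5.44, with 72.7 and 109.6 RPM in brain and 2.22, 2.20 and 1.30 in lung (adjusted p = 0.00014). Anks1 (-3.31, adjusted p = 6.81e-05), Klf2 (-2.19, adjusted p = 0.000458) and Hoxa5 (-4.84, adjusted p = 0.00376) were also called there, whereas Pclo (1.98, adjusted p = 0.144) and Cd74 (-1.96, adjusted p = 0.119) did not pass.

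**Figure D5:**
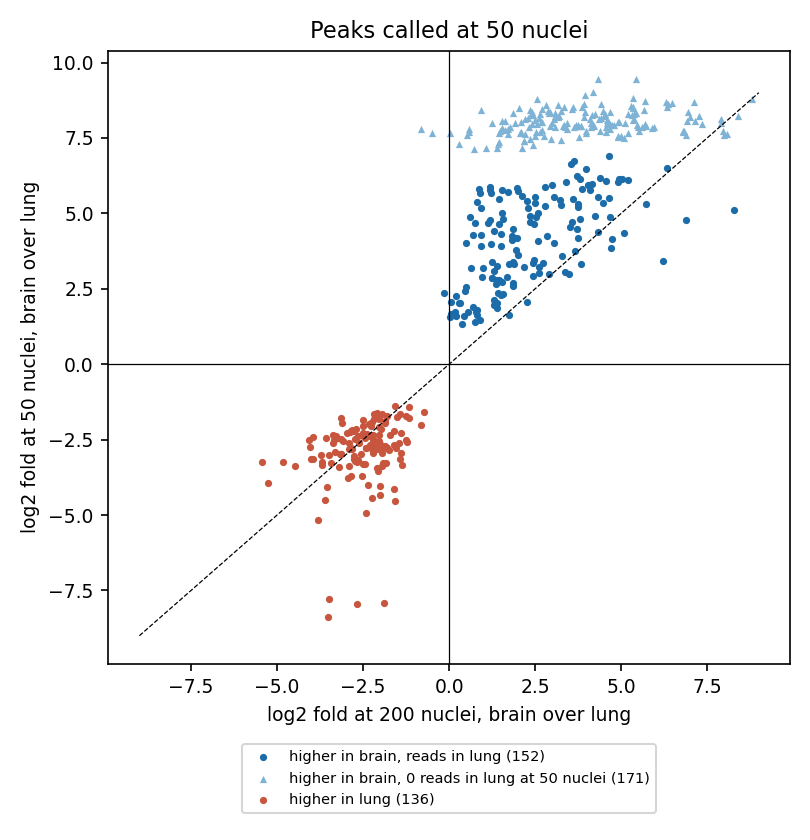
Log2 fold of brain over lung at 200 nuclei (x) and at 50 nuclei (y) for the 459 peaks called at 50 nuclei. Triangles are the 171 brain-higher peaks without a lung read at 50 nuclei, whose fitted value on the y axis depends on the prior count, and the dashed line marks equal folds. All red points, the 136 lung-higher peaks, lie below 0 on both axes.

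A direct test of whether the tissue difference depended on the capture size, as an interaction in the same fit, called no peak. Before adjustment, 964 peaks (2.90%) had a p under 0.05 by edgeR's quasi-likelihood test and 1151 by DESeq2, which also called none. Among called peaks 115 of the 323 brain-higher and 7 of the 136 lung-higher ones had such a p, which is printed as a description since the calls were chosen on 1 of the 2 folds compared. Prkar1b, a regulatory subunit of protein kinase A found in neurons, had 19.2 and 43.8 RPM in brain and 0 in each lung library at 50 nuclei, and 5.01 and 15 RPM in brain against 11.1, 19.8 and 19.2 RPM in lung at 200 (interaction, adjusted p = 1 by edgeR). Pcdh1, a protocadherin, had 76.6 and 68.9 RPM in brain and 2.84, 0 and 0 in lung at 50 nuclei, against 35.1 and 49.4 RPM in brain and 19.4, 19.0 and 13.3 RPM in lung at 200 (interaction of 4.68 ± 1.29 on the log2 scale, adjusted p = 1 by edgeR).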

How the data were processed

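ATAC-seq counts per peak were analysed for 2 brain and 3 lung libraries of 50 nuclei, with 2 and 3 libraries of 200 nuclei. The values are raw whole-number counts per peak, deposited by the authors as 1 table of 37513 peaks and 10 libraries. Per the submitters' processing notes the build was mm10 and the tools included Bowtie2 2.4.5 with Trimmomatic 0.36, MACS2 2.2.7.1, SAMtools 1.14 with Picard, and deepTools 3.1.3. Not given in the sources used here: duplicate removal, the Tn5 read shift, how peaks were merged, and what a count stands for (read or fragment).

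The 2 mitochondrial peaks were left out of library sizes and tests. Nuclear peaks with at least 10 reads over the 5 libraries of 50 nuclei (33251) were tested with edgeR 4.0.16 (R 4.3.3, TMM factors, quasi-likelihood F test, 1 mean per tissue and size over 10 libraries, 6 residual degrees of freedom, Benjamini-Hochberg over all tested peaks at 0.05). Fold changes are brain over lung with their SE. The scripts were tested on simulated data. DESeq2 1.42.0, other scalings, filters, a replicate block, thinning and leaving out libraries were alternatives.

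A peak was assigned to a protein-coding or listed gene (RefSeq, GRCm38.p6) that it overlaps or whose end lies within 5000 bp, nearest end first. Of the nuclear peaks, 28728 had a gene. A promoter window counted as under a peak with 50 or more shared bases. Named peaks were the 10 of lowest p with a gene in each direction, up to 4 called peaks per list or else its highest peak, up to 5 per direction far from genes, and the 4 of lowest interaction p; summed levels of list genes and the other called genes named were chosen after their values were seen. The members and the 21 gene lists were chosen with earlier results of these data known. Deviations of same-numbered libraries of the 2 tissues correlated at 0.017 and 0.006. The deviations of 2 brain libraries mirror each other, so these values cannot exclude a pairing.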

Additional observations from a re-analysis of the deposited data

How the results depend on the processing

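The count of called peaks (459) depended on how the spread was estimated and on single libraries. It was 1620 with DESeq2, 2 with the 5 libraries of 50 nuclei alone, 820 after thinning to the smallest nuclear total, 19511 with mitochondrial reads in the library size and 1559 without lung replicates 2 and 3 together, and it ran from 6 to 3060 when 1 library was left out. It was between 338 and 650 under the other scalings and filters tried. No replicate pairing was supported by the labels; with the replicate number as a block the count was 343, of which 283 were among the 459, and the named calls at Clic5 and Grin1 were lost. The interaction gave 0 calls in the settings run, except 1 without lung replicates 2 and 3. Of 55 named calls, 54 were kept with DESeq2, 53 with edgeR's filterByExpr, 11 without brain replicate 1, 4 without brain replicate 2 and 54 or 55 without a lung replicate; the cause was not tested. With mitochondrial reads in the library size these log2 folds reversed: Peg3 -1.30, Nrxn2 -0.30, Sox8 -0.016, Etv5 -2.73, Rfx2 -2.02, Smtn -2.42 and Pold2 -1.60. Leaving out 1 library, the brain minus lung difference ran from 40.6 to 49.3 percentage points in mitochondrial share, from -283205 to -101877 in nuclear reads and from 16.3 to 33.7 percentage points in peaks reached. Apart from the mitochondrial library size, under which all list medians were negative, 14 of the 21 list medians kept their sign. The farthest values of the other 7 were 0.47 for type 2 and 0.02 for fibroblast genes (without lung replicate 1), -0.52 for lung mesenchyme and -0.27 for choroid plexus (without lung replicates 2 and 3), -0.11 for microglia (without brain replicate 2), 0.10 for airway genes (replicate block) and -0.08 for housekeeping genes (filterByExpr). Depth limits single peaks, since the median tested peak had 36 reads over the 5 libraries.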

Other observations

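Called peaks also lay at genes outside the lists. Npas4, an activity-dependent transcription factor of neurons, read 73.9 and 68.9 RPM in brain at 50 nuclei and 4.27, 0 and 0 RPM in lung (log2 fold 5.32 ± 1.12). Map1a, a neuronal microtubule protein, read 129 and 65.8 RPM in brain and 18.5, 0 and 0 RPM in lung (log2 fold 3.77 ± 0.81). In the other direction Lmna, which encodes nuclear lamins A and C, read 185, 294 and 209.9 RPM in lung and 73.9 and 37.6 RPM in brain (log2 fold -1.84 ± 0.38). Txnip, a glucose-responsive thioredoxin inhibitor, read 61.1, 91.0 and 184 RPM in lung and 8.21 and 0 RPM in brain (log2 fold -4.44 ± 0.90). Nr1d1, a repressor of the circadian clock, read 168, 273 and 279 RPM in lung and 71.1 and 84.6 RPM in brain (log2 fold -1.42 ± 0.35). All 5 passed edgeR's quasi-likelihood test at an adjusted p of 0.05 and were picked out after their values were seen.

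Rfx2, a factor of ciliated cells, was just outside the threshold in the 50-nuclei comparison. It read 169.7 and 219 RPM in brain and 105, 120.3 and 40.2 RPM in lung (log2 fold 1.29 ± 0.38, adjusted p = 0.073 by edgeR) and passed with DESeq2 (adjusted p = 0.0384) and with RLE factors (adjusted p = 0.0477).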
